A study of Mus musculus with 12 samples.

Results

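The mouse genes of the mitochondrial solute carrier family (symbols beginning Slc25a) and of the mitochondrial protein import machinery (symbols beginning Timm or Tomm, followed by a digit) were described in thymus and in thymic lymphoma. Members were chosen by symbol alone: each gene with a probe set that carried 1 gene symbol in the platform annotation was taken if that symbol matched. This gave 69 genes, of which 46 were carriers and 23 import genes, out of 19309 genes measured. Where a member had several probe sets, as 7 did, the one with the highest mean over all 12 arrays stood for it. Timm10b shared its probe set with Dnhd1 and was not taken. No filter on low values was applied, so all 69 members were tested, and 56 of them were brighter than the median gene. Brightness was the mean over all 12 arrays, tumors included. A gene that rose in tumors could therefore count as bright through its tumor values.

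Thymic total RNA, all from FVB/N mice, was hybridised to 12 single-colour whole-transcript arrays. The 3 arrays of normal thymocytes came from non-tumor, wild-type animals aged 24 dpn. The 5 arrays of control tumors came from MYC-induced T-cell lymphomas of wild-type genotype, with the age given as terminal. The 4 arrays of Dnmt3a-deficient tumors came from lymphomas, also terminal, in which the DNA methyltransferase gene Dnmt3a had been deleted in blood-forming cells while MYC was present. What drives MYC, and which Cre line removed Dnmt3a, is not stated in the labels used here. No label says whether arrays of a group stem from different animals, and the p-values therefore reflect only the sample-to-sample spread, which may be technical. Age, and any batch, cannot be told apart from tumor state.

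Most mitochondrial proteins are made in the cytosol and enter through the TOM complex of the outer membrane. Small TIM chaperones escort hydrophobic precursors through the intermembrane space, the TIM22 complex inserts carriers into the inner membrane, and the TIM23 complex with its motor draws presequence-bearing proteins towards the matrix. The carriers themselves exchange nucleotides, phosphate, carboxylates, amino acids and cofactors across the inner membrane, and dividing T cells draw on them for ATP, nucleotide and one-carbon metabolism.

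Control tumors 1 and 2 stood apart from the other control tumors: the 75th percentile of all log2 values was 8.54 and 8.51 there, 8.25 to 8.30 in control tumors 3, 4 and 5, 8.13 to 8.21 in normal thymocytes and 8.50 to 8.60 in deficient tumors. Results between the tumor groups are therefore given with and without control tumors 1 and 2. Dnmt3a, the check of the labels, averaged 9.48 ± 0.15 (SD, n = 3) for normal thymocytes, 8.67 ± 0.53 (n = 5) for control and 7.42 ± 0.20 (n = 4) for deficient tumors, where it was lower than in control tumors by a log2 difference of -1.25 (limma adjusted p = 0.0317). The thymocyte label was set against 13 markers, whose mean log2 value was 11.11 to 11.16 in normal thymocytes, 8.65 to 10.15 in control tumors and 8.67 to 9.86 in deficient tumors. Of these 13 markers, 0 had a higher mean in either tumor group than in normal thymocytes. In control tumors 8 were called lower and in deficient tumors 9, where 11.3% and 19.0% of all genes were. Thy1 was 11.75 to 11.85 in normal thymocytes, 10.56 to 11.42 in control tumors and 11.14 to 12.01 in deficient tumors. The mean of 12 neutrophil markers was 8.0 and 7.84 in control tumors 3 and 4 against 5.36 to 6.81 on the other 10 arrays, and that of 9 adipocyte markers was 8.05 in control tumor 2 against 5.12 to 5.30 on the other 11. In these bulk samples, fewer cells of a type and less RNA per cell cannot be told apart.

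The first comparison asks how the carriers and import genes differ between MYC-induced lymphomas labelled wild type and normal thymocytes. Of the 69 members, 22 rose and 6 fell in control tumors (limma, adjusted p under 0.05 over all 19309 genes). Over all genes, 13.0% were called higher and 11.3% lower. All 28 called members were among the 56 brighter than the median gene, and of all genes that bright 24.8% were called higher and 16.0% lower. That brightness includes the tumor arrays, so it is not independent of the calls. Slc25a33, Timm8a1 and Slc25a24, all called higher, averaged 5.61, 6.09 and 6.11 in normal thymocytes, where array medians were 6.45 to 6.51. At least a 2-fold difference was reached by 11 of the 22 that rose (7.61% of all genes passed that rule upwards) and by 0 of the 6 that fell (3.26%). Carriers gave 14 higher and 5 lower of 46, and import genes 8 higher and 1 lower of 23. The median log2 difference was 0.30 over the members and -0.08 over all genes. Among genes brighter than the median gene it was 0.37 for the 56 members there and 0.06 for all. Of the 28 called members, 27 had groups that did not overlap, the exception being Slc25a45 (13.8% of all genes lay wholly above and 14.0% wholly below). Without normal thymocytes 1 alone 0 members were called lower, and without normal thymocytes 2 alone 2 were; without control tumors 1 and 2, 21 members rose and 8 fell. The calls of Slc25a15, Slc25a17, Slc25a30, Slc25a45 and Timm10 were lost in that fit (adjusted p from 0.0519 to 0.145), and Timm8b, still called, differed by 0.53.

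Dnmt3a-deficient tumors were set against the same 3 normal arrays, so the comparisons with normal thymocytes share these and are given side by side. Here 31 members rose and 7 fell, against 18.7% of all genes called higher and 19.0% lower. Of the 56 brighter members 31 rose and 6 fell, and of all genes that bright 34.5% were called higher and 19.8% lower. The 2-fold mark was reached by 18 of those that rose and 1 of those that fell (11.8% and 4.94% of all genes). Import genes gave 13 higher and 0 lower of 23, and carriers 18 higher and 7 lower of 46. All 38 called members had groups that did not overlap (23.0% of all genes wholly above, 26.7% wholly below). The median log2 difference was 0.45 over the members and -0.10 over all genes, and 0.68 against 0.20 for genes brighter than the median gene. The share of higher among called members depended on scaling: 31 higher and 7 lower became 24 and 11 when arrays were quantile-normalized again and 25 and 11 after cyclic loess, while 22 and 6 in control tumors became 18 and 9 and 21 and 9. Cyclic loess moved the median of all genes in deficient tumors from -0.10 to -0.001. Without normal thymocytes 1 alone, 4 members were called lower in deficient tumors. No called member changed sign under any of these scalings.

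**Figure D1:**
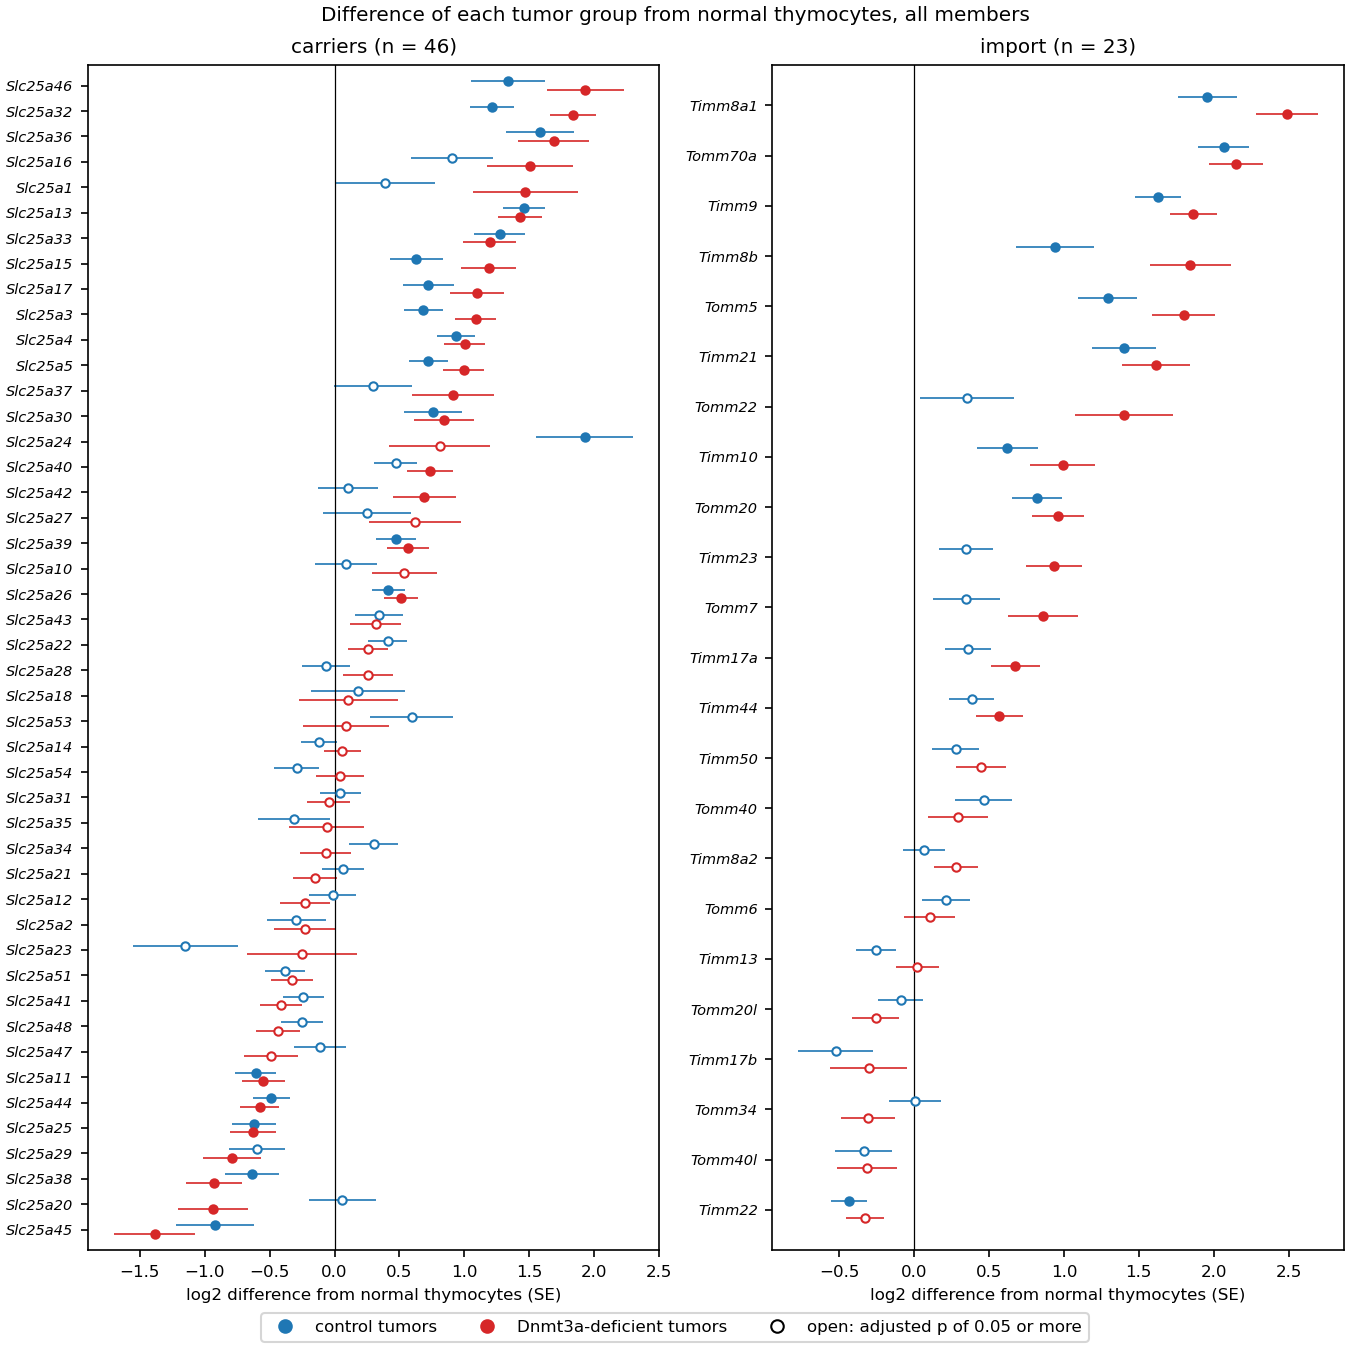
Log2 difference from normal thymocytes (x axis, dot, with its standard error as a bar) for every carrier (left, n = 46) and import gene (right, n = 23), with control tumors in blue and Dnmt3a-deficient tumors in red; filled dots had an adjusted p under 0.05. In deficient tumors 13 import genes lie to the right with filled dots and 0 to the left, while the carriers have 18 filled to the right and 7 to the left.

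The counts by role below stand beside 13.0% of all genes called higher in control tumors and 18.7% in deficient tumors. Among genes brighter than the median gene these shares were 24.8% and 34.5%. Among the import genes, the small TIM chaperones of the intermembrane space had 4 of 6 members higher in both tumor groups, with median differences of 0.78 in control and 1.42 in deficient tumors. These proteins form chaperone rings, of Timm9 with Timm10 and of Timm8 with Timm13, that carry hydrophobic precursors. Timm8a1 was 6.11, 6.38 and 5.79 in normal thymocytes 1 to 3, 8.26, 8.43, 7.65, 8.01 and 7.91 in control tumors 1 to 5, and 8.38, 8.38, 8.77 and 8.79 in deficient tumors 1 to 4. Every tumor lay above every normal array, and the tumor groups overlapped. Timm8a1 rose by 1.96 in control tumors (SE 0.20, adjusted p = 1.6e-05) and by 2.49 in deficient tumors (SE 0.21, adjusted p = 2.5e-06), and its second probe set gave 2.09 and 2.07. The sets differed between the tumor groups, with deficient minus control at 0.53 for the set used and -0.02 for the second, and neither difference was called. Timm9 was 6.90, 6.53 and 6.58 in normal thymocytes 1 to 3, 8.46, 8.10, 8.54, 8.19 and 8.22 in control tumors 1 to 5, and 8.57, 8.69, 8.30 and 8.58 in deficient tumors 1 to 4. The tumor groups again overlapped each other and neither reached down to the normal arrays. Timm9 rose by 1.63 (SE 0.15, adjusted p = 8.8e-06) and 1.86 (SE 0.16, adjusted p = 2.9e-06).

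Timm8b, the paralog of Timm8a1, was 8.31, 8.43 and 8.31 in normal thymocytes 1 to 3, 9.76, 10.06, 8.95, 8.80 and 8.88 in control tumors 1 to 5, and 10.04, 10.17, 10.33 and 10.23 in deficient tumors 1 to 4. Control tumors 1 and 2 lay close to the deficient tumors, and control tumors 3, 4 and 5 only just above the normal arrays. Timm8b rose by 0.94 in control tumors (SE 0.26, adjusted p = 0.017) and by 1.84 in deficient tumors (SE 0.27, adjusted p = 1.7e-04). The control-tumor call was lost without normal thymocytes 1 or 3 (adjusted p = 0.0584 and 0.0568). Timm10, the ring partner of Timm9, rose by 0.62 in control tumors (SE 0.20, adjusted p = 0.0414) and by 0.99 in deficient tumors (SE 0.21, adjusted p = 0.00286). Its control-tumor call was lost without normal thymocytes 1, 2 or 3 or control tumors 1 or 2, each left out alone (adjusted p from 0.0668 to 0.144). Timm13, the ring partner of the Timm8 proteins, gave -0.25 and 0.02 (adjusted p = 0.204 and 0.931), and the dim Timm8a2 gave 0.06 and 0.28 (adjusted p = 0.79 and 0.153).

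The promoter windows of Timm8a1 and Timm9 are shown because both genes rose in both tumor groups and each window holds 2 copies of the E-box CACGTG, the letters that MYC with its partner MAX is known to bind. Windows run from 250 bases before to 50 bases after the annotated start, on the gene's strand, from RefSeq annotation of GRCm38.p6, and capitals mark the E-box. The Timm8a1 window lies at chrX:134541621-134541920 on the minus strand, with E-boxes beginning at -236 and +25 from the start. The Timm9 window lies at chr12:71136626-71136925 on the minus strand, with E-boxes at -58 and -1.
Timm8a1: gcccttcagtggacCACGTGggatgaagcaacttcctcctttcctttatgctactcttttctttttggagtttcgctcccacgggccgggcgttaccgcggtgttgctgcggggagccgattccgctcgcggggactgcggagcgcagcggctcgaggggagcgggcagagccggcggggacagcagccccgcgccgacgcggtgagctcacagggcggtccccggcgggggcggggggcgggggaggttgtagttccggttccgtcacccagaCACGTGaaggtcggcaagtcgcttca
Timm9: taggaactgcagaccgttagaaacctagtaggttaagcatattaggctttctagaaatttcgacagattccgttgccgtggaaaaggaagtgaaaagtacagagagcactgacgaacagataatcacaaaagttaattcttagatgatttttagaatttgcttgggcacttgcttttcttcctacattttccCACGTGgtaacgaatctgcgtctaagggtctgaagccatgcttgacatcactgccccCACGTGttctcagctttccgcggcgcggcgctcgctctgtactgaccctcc

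The TIM23 complex, the presequence translocase, had 1 of 6 members higher in control tumors and 4 of 6 in deficient tumors. That is 16.7% and 66.7%, against 24.8% and 34.5% of genes brighter than the median gene. Timm21, which links TIM23 to the TOM complex, was 8.29, 8.20 and 7.81 in normal thymocytes 1 to 3, 9.76, 9.58, 9.93, 9.32 and 8.91 in control tumors 1 to 5, and 9.89, 9.43, 9.76 and 9.79 in deficient tumors 1 to 4. All tumors lay above the normal arrays, and Timm21 rose by 1.40 (SE 0.22, adjusted p = 3.7e-04) and 1.62 (SE 0.23, adjusted p = 1.2e-04). Timm23, the channel subunit, was 10.47, 10.38 and 10.49 in normal thymocytes 1 to 3, 11.12, 11.16, 10.73, 10.63 and 10.32 in control tumors 1 to 5, and 11.30, 11.28, 11.47 and 11.47 in deficient tumors 1 to 4. The deficient tumors lay above all other arrays, and control tumor 5 lay below every normal array. Timm23 rose by 0.93 in deficient tumors (SE 0.19, adjusted p = 0.00184) and gave 0.34 in control tumors (adjusted p = 0.194). Timm17a, a further core subunit, rose by 0.68 in deficient tumors (SE 0.16, adjusted p = 0.00558), a call that its second probe set did not share (0.29, adjusted p = 0.146) and that was lost after cyclic loess (0.35, adjusted p = 0.0871). Timm44, which anchors the import motor, rose by 0.57 in deficient tumors (SE 0.16, adjusted p = 0.0114). That call was lost when arrays were quantile-normalized again (0.20, adjusted p = 0.487) and after cyclic loess (0.30, adjusted p = 0.249). The paralog Timm17b gave -0.52 and -0.30 and the receptor Timm50 0.28 and 0.45, and neither passed the test (adjusted p = 0.148 and 0.381 for Timm17b, 0.236 and 0.0501 for Timm50).

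Timm22, the channel of the carrier translocase, was the import gene that fell in control tumors. Its values were 8.50, 8.57 and 8.46 in normal thymocytes 1 to 3, 8.14, 8.21, 7.87, 8.13 and 8.03 in control tumors 1 to 5, and 8.17, 8.25, 8.07 and 8.24 in deficient tumors 1 to 4. Every tumor lay below every normal array. Timm22 fell by 0.44 in control tumors (SE 0.12, adjusted p = 0.0179) and gave -0.33 in deficient tumors (adjusted p = 0.0571). The call in control tumors was lost without normal thymocytes 1 or 2 (adjusted p = 0.0505 and 0.0704).

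Of the 9 TOM members, 3 rose in control tumors (33.3%) and 5 in deficient tumors (55.6%). Of genes brighter than the median gene, 24.8% and 34.5% rose. Tomm70a, the receptor that takes up carrier precursors, had the lowest adjusted p of all members in both comparisons. It was 7.49, 7.25 and 7.83 in normal thymocytes 1 to 3, 9.35, 9.34, 9.96, 9.72 and 9.57 in control tumors 1 to 5, and 9.67, 9.60, 9.67 and 9.75 in deficient tumors 1 to 4. The lowest tumor lay well above the highest normal array. Tomm70a rose by 2.07 (SE 0.17, adjusted p = 3.9e-06) and 2.15 (SE 0.18, adjusted p = 2.4e-06). The small subunit Tomm5 ranged from 7.98 to 8.40 in normal thymocytes, 9.31 to 9.94 in control tumors and 9.49 to 10.25 in deficient tumors. It rose by 1.29 (SE 0.20, adjusted p = 3.9e-04) and 1.80 (SE 0.21, adjusted p = 2.9e-05). Tomm20, the presequence receptor, ranged from 9.16 to 9.79 in normal thymocytes, 10.14 to 10.50 in control tumors and 10.25 to 10.75 in deficient tumors. It rose by 0.82 (SE 0.17, adjusted p = 0.00268) and 0.96 (SE 0.17, adjusted p = 8.2e-04), the latter falling to 0.64 after cyclic loess.

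Tomm22, the central receptor of the complex, was 8.45, 8.54 and 8.59 in normal thymocytes 1 to 3, 9.25, 9.83, 8.62, 8.33 and 8.34 in control tumors 1 to 5, and 9.52, 9.71, 10.36 and 10.11 in deficient tumors 1 to 4. Control tumors 1 and 2 lay above the normal arrays, control tumor 3 just above and control tumors 4 and 5 below them. Tomm22 rose by 1.40 in deficient tumors (SE 0.33, adjusted p = 0.00469) and gave 0.35 in control tumors (adjusted p = 0.458). Tomm7, which modulates the complex, rose by 0.86 in deficient tumors (SE 0.23, adjusted p = 0.0116), a call lost without normal thymocytes 3 (adjusted p = 0.0516) and after cyclic loess (0.54, adjusted p = 0.0567). The pore subunit Tomm40 gave 0.46 and 0.29 (adjusted p = 0.0977 and 0.271), and Tomm6, Tomm20l and Tomm40l were not called in either comparison. Tomm34, a cytosolic cochaperone that shares the name, gave 0.00 and -0.31 (adjusted p = 0.988 and 0.196). Timm8a1, Timm17a, Timm23 and Tomm20, like the carriers Slc25a5, Slc25a36 and Slc25a40, were each listed with several probe sets. Where near-identical copies of a gene lie elsewhere in the genome, the annotation does not say which copy a set reads, so these levels are uncertain. Both probe sets of Tomm20 were called in both comparisons, and all 4 of Timm23, 2 of them with identical values, were called in deficient tumors.

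**Figure D2:**
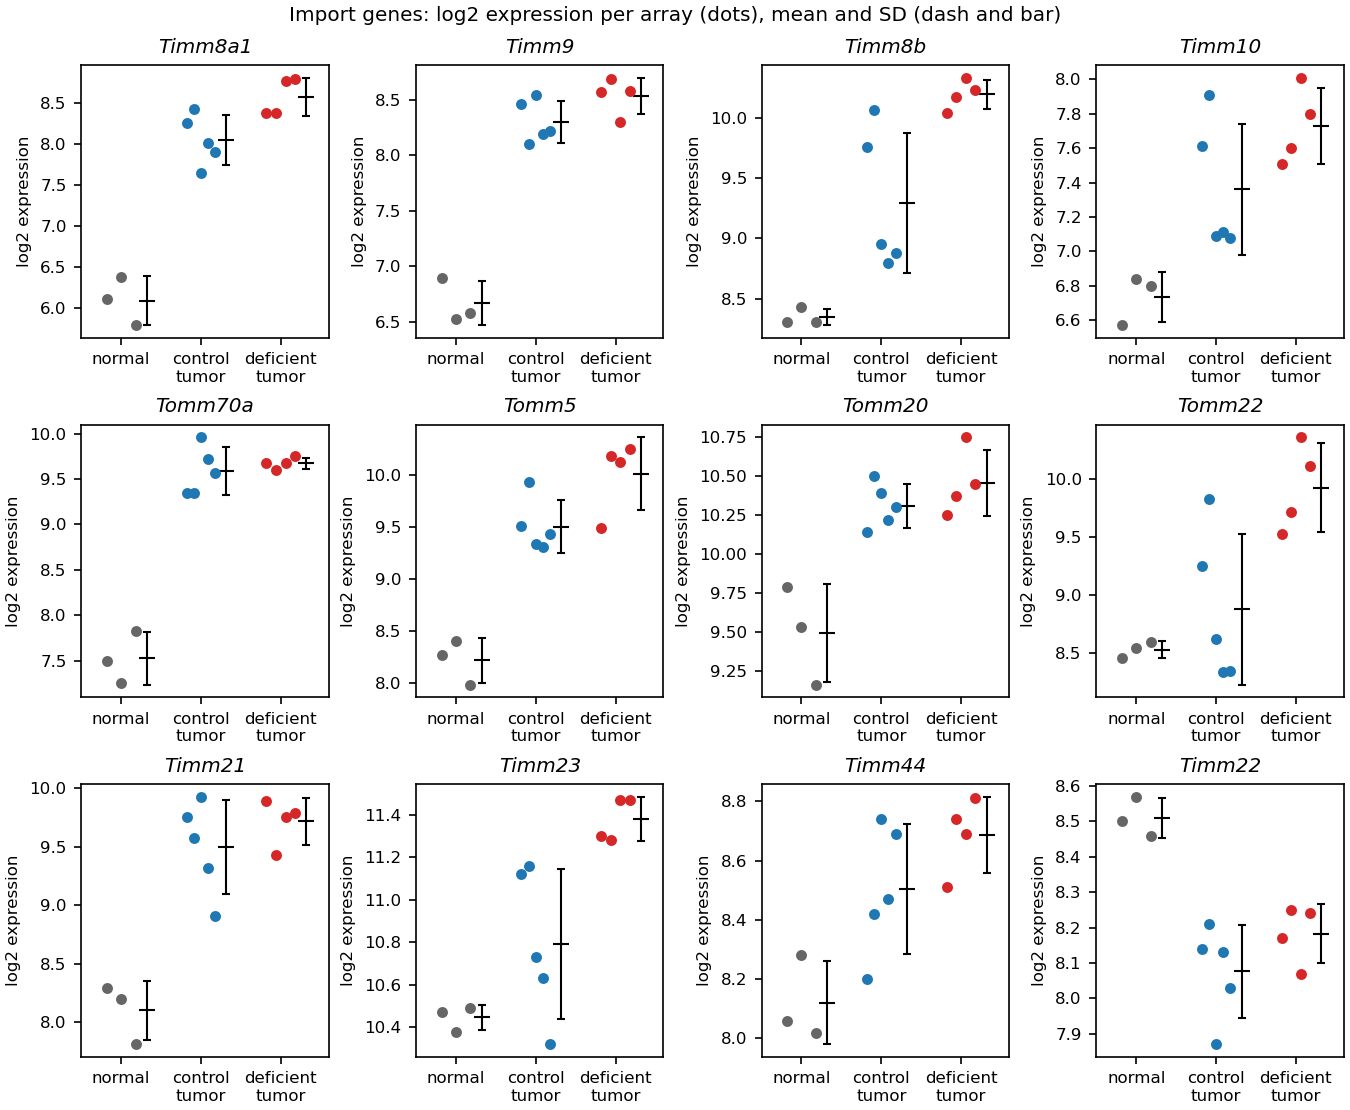
Log2 expression (y axis, scaled separately for each gene) of 12 import genes in normal thymocytes (grey, n = 3), control tumors (blue, n = 5) and Dnmt3a-deficient tumors (red, n = 4); each dot is an array and the dash with its bar is the mean with its SD. Timm8a1, Timm9, Tomm70a and Tomm5 sit higher on every tumor array, Timm22 sits lower on every tumor array, and Timm8b, Timm23 and Tomm22 spread widely among the control tumors.

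Among the carriers, 5 of 8 that transport nucleotides and cofactors rose in control tumors and 7 of 8 in deficient tumors, with 0 lower in either and median differences of 0.81 and 1.15. Slc25a36 and Slc25a33, which bring pyrimidine nucleotides into mitochondria, both rose. Slc25a36 was 7.76, 7.41 and 7.93 in normal thymocytes 1 to 3, 10.02, 9.72, 8.83, 8.79 and 9.06 in control tumors 1 to 5, and 9.52, 9.41, 9.21 and 9.41 in deficient tumors 1 to 4. All tumors lay above the normal arrays, with control tumors 1 and 2 the highest. Slc25a36 rose by 1.58 (SE 0.26, adjusted p = 6.2e-04) and 1.69 (SE 0.27, adjusted p = 3.6e-04), and its second probe set gave 1.00 and 0.77, also called. Slc25a33 ranged from 5.26 to 5.82 in normal thymocytes, 6.59 to 7.19 in control tumors and 6.45 to 7.10 in deficient tumors. It rose by 1.27 (SE 0.19, adjusted p = 3.6e-04) and 1.20 (SE 0.20, adjusted p = 5.3e-04).

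Slc25a32, the mitochondrial folate carrier, was 7.57, 7.44 and 7.61 in normal thymocytes 1 to 3, 8.95, 8.78, 8.94, 8.43 and 8.67 in control tumors 1 to 5, and 9.14, 9.11, 9.57 and 9.68 in deficient tumors 1 to 4. Its groups did not overlap: every control tumor lay above every normal array and every deficient tumor above every control tumor. Slc25a32 rose by 1.21 in control tumors (SE 0.17, adjusted p = 1.9e-04) and by 1.83 in deficient tumors (SE 0.18, adjusted p = 7.3e-06). Slc25a17, a peroxisomal carrier of coenzyme A and other cofactors, rose by 0.72 (SE 0.20, adjusted p = 0.0164) and 1.10 (SE 0.21, adjusted p = 0.00111). Its control-tumor call was lost without normal thymocytes 2 or 3 (adjusted p = 0.0678 and 0.0763). Slc25a26, the S-adenosylmethionine carrier, rose by 0.41 (SE 0.13, adjusted p = 0.0303) and 0.51 (SE 0.13, adjusted p = 0.00873). The control-tumor call of Slc25a26 was lost without normal thymocytes 1, 2 or 3 or control tumor 5, each left out alone (adjusted p from 0.0503 to 0.124), and also when arrays were quantile-normalized again (0.20, adjusted p = 0.406) and after cyclic loess (0.37, adjusted p = 0.092). Its deficient-tumor call was lost when arrays were quantile-normalized again (0.13, adjusted p = 0.604) and after cyclic loess (0.32, adjusted p = 0.129).

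Slc25a16, which takes part in coenzyme A supply, was 7.35, 7.26 and 6.93 in normal thymocytes 1 to 3, 8.64, 9.03, 7.58, 7.41 and 7.77 in control tumors 1 to 5, and 8.58, 8.68, 8.51 and 8.98 in deficient tumors 1 to 4. Control tumors 1 and 2 lay with the deficient tumors and the other control tumors lay lower. Slc25a16 rose by 1.51 in deficient tumors (SE 0.33, adjusted p = 0.00323) and gave 0.91 in control tumors (adjusted p = 0.0542). Slc25a42, another carrier of coenzyme A, rose by 0.69 in deficient tumors (SE 0.24, adjusted p = 0.0383), a call lost without normal thymocytes 1, 2 or 3 or deficient tumors 1 or 2, each left out alone (adjusted p from 0.069 to 0.132). It was also lost when arrays were quantile-normalized again (0.32, adjusted p = 0.275) and after cyclic loess (0.49, adjusted p = 0.098). Slc25a51, the carrier of NAD, gave -0.38 and -0.33 (adjusted p = 0.0948 and 0.135).

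The carriers that supply ATP synthesis rose in both tumor groups, 3 of 4 in each. Slc25a4, an ADP/ATP carrier, was 10.01, 9.75 and 9.90 in normal thymocytes 1 to 3, 10.56, 10.96, 11.11, 10.82 and 10.66 in control tumors 1 to 5, and 10.76, 10.95, 11.05 and 10.79 in deficient tumors 1 to 4. Its tumors all lay above the normal arrays, and it rose by 0.94 (SE 0.15, adjusted p = 4.6e-04) and 1.00 (SE 0.16, adjusted p = 2.6e-04). Its paralog Slc25a5 ranged from 11.40 to 11.45 in normal thymocytes, 11.96 to 12.52 in control tumors and 12.28 to 12.52 in deficient tumors. Slc25a5 rose by 0.72 (SE 0.15, adjusted p = 0.00306) and 0.99 (SE 0.16, adjusted p = 2.8e-04), and each of its 3 probe sets was called in both comparisons, although near-identical copies of Slc25a5 make its own level uncertain. Slc25a3, the phosphate carrier, ranged from 10.47 to 10.56 in normal thymocytes, 10.99 to 11.51 in control tumors and 11.51 to 11.77 in deficient tumors. It rose by 0.68 (SE 0.15, adjusted p = 0.0045) and 1.09 (SE 0.16, adjusted p = 1.5e-04). The testis form Slc25a31 was dim, at 4.00 to 4.76 on all arrays, and gave 0.05 and -0.05 (adjusted p = 0.87 and 0.854).

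The ATP-Mg/phosphate carriers, which adjust the matrix adenine nucleotide pool, went different ways. Slc25a24 was 5.84, 6.15 and 6.35 in normal thymocytes 1 to 3, 8.43, 8.07, 8.64, 8.08 and 6.98 in control tumors 1 to 5, and 7.13, 7.71, 6.07 and 6.79 in deficient tumors 1 to 4. Control tumors lay above normal arrays, and deficient tumor 3 lay within the normal range. Slc25a24 rose by 1.93 in control tumors (SE 0.37, adjusted p = 0.00198) and gave 0.81 in deficient tumors (adjusted p = 0.121). Slc25a25 fell by 0.62 in control tumors (SE 0.17, adjusted p = 0.0162) and by 0.63 in deficient tumors (SE 0.18, adjusted p = 0.0134). Its calls were lost without normal thymocytes 1 (adjusted p = 0.0827) in control tumors and without normal thymocytes 1 (adjusted p = 0.062) in deficient tumors. Slc25a23 was 8.37, 8.66 and 8.17 in normal thymocytes 1 to 3, 8.39, 7.98, 6.18, 6.65 and 7.04 in control tumors 1 to 5, and 7.81, 8.21, 8.03 and 8.54 in deficient tumors 1 to 4. Control tumors 3, 4 and 5 lay below every other array, and the differences of -1.15 (adjusted p = 0.0555) and -0.25 (adjusted p = 0.678) were not called.

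The amino acid carriers were also divided, with 2 higher and 2 lower of 9 in control tumors and 2 higher and 3 lower in deficient tumors. Of all genes, 13.0% were called higher and 11.3% lower in control tumors, and 18.7% and 19.0% in deficient tumors. Slc25a13, the aspartate/glutamate carrier citrin, was 6.93, 7.03 and 6.67 in normal thymocytes 1 to 3, 8.07, 8.71, 8.30, 8.20 and 8.39 in control tumors 1 to 5, and 8.05, 8.46, 8.39 and 8.31 in deficient tumors 1 to 4. All tumors lay above the normal arrays. Slc25a13 rose by 1.46 (SE 0.16, adjusted p = 3.3e-05) and 1.43 (SE 0.17, adjusted p = 3.5e-05), while its paralog Slc25a12 gave -0.01 and -0.23 (adjusted p = 0.967 and 0.369). Slc25a15, the ornithine carrier, ranged from 7.28 to 7.34 in normal thymocytes, 7.45 to 8.40 in control tumors and 8.31 to 8.83 in deficient tumors. It rose by 0.63 (SE 0.20, adjusted p = 0.0389) and 1.19 (SE 0.21, adjusted p = 8.0e-04). The control-tumor call of Slc25a15 was lost without normal thymocytes 1, 2 or 3 or control tumors 1, 2 or 3, each left out alone (adjusted p from 0.0618 to 0.114), and when arrays were quantile-normalized again (0.45, adjusted p = 0.0617). The glutamate carriers Slc25a22 and Slc25a18 and the ornithine carrier Slc25a2 were not called in either comparison.

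The members of that group that fell were the carriers of glycine, branched-chain amino acids and basic amino acids. Slc25a38, which imports glycine for heme synthesis, was 9.57, 9.60 and 9.58 in normal thymocytes 1 to 3, 9.42, 9.23, 8.72, 8.96 and 8.40 in control tumors 1 to 5, and 8.53, 8.89, 8.43 and 8.77 in deficient tumors 1 to 4. Every tumor lay below the normal arrays, which spanned a narrow range. Slc25a38 fell by 0.64 in control tumors (SE 0.21, adjusted p = 0.0389) and by 0.93 in deficient tumors (SE 0.22, adjusted p = 0.00468). The call in control tumors was lost without normal thymocytes 1, 2 or 3 or control tumors 3, 4 or 5, each left out alone (adjusted p from 0.0558 to 0.111). Slc25a44, the carrier of branched-chain amino acids, fell by 0.49 (SE 0.14, adjusted p = 0.0243) and 0.58 (SE 0.15, adjusted p = 0.0087). Its control-tumor call was lost without normal thymocytes 1 or 2 (adjusted p = 0.0797 and 0.0777), and its difference in deficient tumors was -0.88 under both of the other scalings. Slc25a29, a carrier of basic amino acids, fell by 0.79 in deficient tumors (SE 0.22, adjusted p = 0.0144), a call lost without normal thymocytes 1 (adjusted p = 0.0776) and after cyclic loess (-0.59, adjusted p = 0.0637).

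Of the di- and tricarboxylate carriers, Slc25a11, the oxoglutarate/malate carrier, fell by 0.61 (SE 0.16, adjusted p = 0.0129) and 0.55 (SE 0.17, adjusted p = 0.0199). Its calls were lost without normal thymocytes 1 (adjusted p = 0.0637) in control tumors and without normal thymocytes 1 or deficient tumor 3 (adjusted p = 0.0757 and 0.0513) in deficient tumors, where cyclic loess gave -0.87. Slc25a1, the citrate carrier that feeds lipid synthesis, was 8.17, 8.03 and 7.91 in normal thymocytes 1 to 3, 8.75, 9.87, 7.69, 7.92 and 7.90 in control tumors 1 to 5, and 9.23, 9.57, 9.45 and 9.78 in deficient tumors 1 to 4. Control tumor 2 was the highest array, control tumor 1 lay above the normal arrays, and control tumors 3, 4 and 5 lay within or just below their range. Slc25a1 rose by 1.47 in deficient tumors (SE 0.41, adjusted p = 0.0121) and gave 0.39 in control tumors (adjusted p = 0.513). Slc25a10, the dicarboxylate carrier, gave 0.09 in control and 0.54 in deficient tumors (adjusted p = 0.828 and 0.104). It was at 8.99 in control tumor 2, the array with the high adipocyte marker mean, and at 7.92 to 8.77 in the other control tumors. The deficient tumors, whose adipocyte marker mean was 5.18 to 5.30, had Slc25a10 at 8.59 to 9.08. The part of adipocyte RNA in the Slc25a1 and Slc25a10 values was not tested.

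Among the iron and glutathione carriers, 1 of 4 rose in control tumors and 3 of 4 in deficient tumors. Of genes brighter than the median gene, 24.8% and 34.5% rose. Slc25a37 and Slc25a28 are the mitoferrins, which import iron. Slc25a37 was 8.99, 8.81 and 8.83 in normal thymocytes 1 to 3, 10.09, 9.60, 8.52, 8.83 and 8.82 in control tumors 1 to 5, and 9.39, 9.85, 9.80 and 10.12 in deficient tumors 1 to 4. Control tumors 1 and 2 lay within the range of the deficient tumors and the other control tumors near the normal arrays. Slc25a37 rose by 0.92 in deficient tumors (SE 0.32, adjusted p = 0.036), a call lost without normal thymocytes 1, 2 or 3 or deficient tumors 2, 3 or 4, each left out alone (adjusted p from 0.0658 to 0.101). It was also lost when arrays were quantile-normalized again (0.63, adjusted p = 0.097) and after cyclic loess (0.60, adjusted p = 0.115), and with the replicate number as a block (adjusted p = 0.0592). The mean of 6 erythroid markers was 6.72 to 7.08 in normal thymocytes, 6.38 to 7.03 in control tumors and 6.71 to 7.10 in deficient tumors. It joins markers that moved in opposite ways. Tfrc averaged 8.05 in normal thymocytes, 11.25 in control and 10.78 in deficient tumors, and Car2 averaged 7.49, 5.36 and 5.06. Both were named after their values were seen. Between deficient tumors and normal thymocytes 2 of the 6 had a higher mean and 4 a lower one, and likewise between deficient and control tumors. Alas2, which starts heme synthesis in red cell precursors, was the marker with a higher mean in deficient tumors in both (7.47, against 6.64 in normal thymocytes and 5.86 in control tumors; named after its values were seen), and its normal arrays, at 5.72, 7.20 and 7.0, overlapped the deficient ones at 6.90 to 8.26. Control tumor 1 also lay within the deficient range, with Alas2 at 7.98 against 5.23 to 5.48 in the other control tumors. The part of erythroid RNA in the Slc25a37 values was not tested. Slc25a28 gave -0.07 and 0.25 (adjusted p = 0.827 and 0.32).

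Slc25a39 and Slc25a40 carry glutathione into mitochondria. Slc25a39 rose by 0.47 (SE 0.15, adjusted p = 0.0405) and 0.56 (SE 0.16, adjusted p = 0.0151). Its control-tumor call was lost without normal thymocytes 1, 2 or 3 or control tumors 2, 3, 4 or 5, each left out alone (adjusted p from 0.0514 to 0.153), and its deficient-tumor call was lost without normal thymocytes 1 (adjusted p = 0.0653). The control-tumor call was also lost when arrays were quantile-normalized again (0.34, adjusted p = 0.174) and after cyclic loess (0.30, adjusted p = 0.227). The deficient-tumor call was also lost when arrays were quantile-normalized again (0.32, adjusted p = 0.197) and after cyclic loess (0.24, adjusted p = 0.333). Slc25a40 rose by 0.74 in deficient tumors (SE 0.18, adjusted p = 0.00538), and its second probe set gave 0.44 (adjusted p = 0.047). That call was lost when arrays were quantile-normalized again (0.42, adjusted p = 0.119).

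Slc25a20, the carnitine/acylcarnitine carrier of fatty acid oxidation, was 8.82, 8.77 and 8.93 in normal thymocytes 1 to 3, 8.16, 8.48, 9.33, 9.44 and 9.09 in control tumors 1 to 5, and 7.61, 8.17, 7.90 and 7.93 in deficient tumors 1 to 4. The deficient tumors lay below the normal arrays, and the control tumors lay on both sides of them. Slc25a20 fell by 0.94 in deficient tumors (SE 0.27, adjusted p = 0.0158), a call lost without normal thymocytes 3 (adjusted p = 0.0538), and gave 0.06 in control tumors (adjusted p = 0.896). Of the remaining carriers, Slc25a46, an outer membrane protein of mitochondrial dynamics, ranged from 6.58 to 7.49 in normal thymocytes, 7.82 to 9.10 in control tumors and 8.99 to 9.17 in deficient tumors. It rose by 1.33 (SE 0.28, adjusted p = 0.00379) and 1.93 (SE 0.30, adjusted p = 2.5e-04). Slc25a30, related to the uncoupling proteins, rose by 0.76 (SE 0.22, adjusted p = 0.0238) and 0.84 (SE 0.23, adjusted p = 0.0123), calls lost without normal thymocytes 2 or 3 (adjusted p = 0.0586 and 0.114) in control tumors and without normal thymocytes 3 (adjusted p = 0.0613) in deficient tumors. The control-tumor call was also lost when arrays were quantile-normalized again (0.56, adjusted p = 0.0777), and the deficient-tumor call when arrays were quantile-normalized again (0.46, adjusted p = 0.141) and after cyclic loess (0.57, adjusted p = 0.0596).

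Slc25a45 fell furthest among the called members in both comparisons. It was 9.69, 9.48 and 9.45 in normal thymocytes 1 to 3, 8.25, 7.99, 8.60, 8.55 and 9.71 in control tumors 1 to 5, and 8.08, 8.45, 7.88 and 8.21 in deficient tumors 1 to 4. Control tumor 5 lay above all normal arrays and the other tumors below them. Slc25a45 fell by 0.92 in control tumors (SE 0.30, adjusted p = 0.0391) and by 1.39 in deficient tumors (SE 0.31, adjusted p = 0.00376). The control-tumor call was lost without normal thymocytes 1, 2 or 3 or control tumors 1, 2, 3 or 4, each left out alone (adjusted p from 0.0614 to 0.122). The members not named so far, Slc25a14, Slc25a21, Slc25a27, Slc25a34, Slc25a35, Slc25a41, Slc25a43, Slc25a47, Slc25a48, Slc25a53 and Slc25a54, had differences from -0.32 (Slc25a35) to 0.59 (Slc25a53) in control tumors. In deficient tumors theirs ran from -0.49 (Slc25a47) to 0.62 (Slc25a27), and none of these carriers was called in either comparison, with a lowest adjusted p of 0.0588 for Slc25a48.

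**Figure D3:**
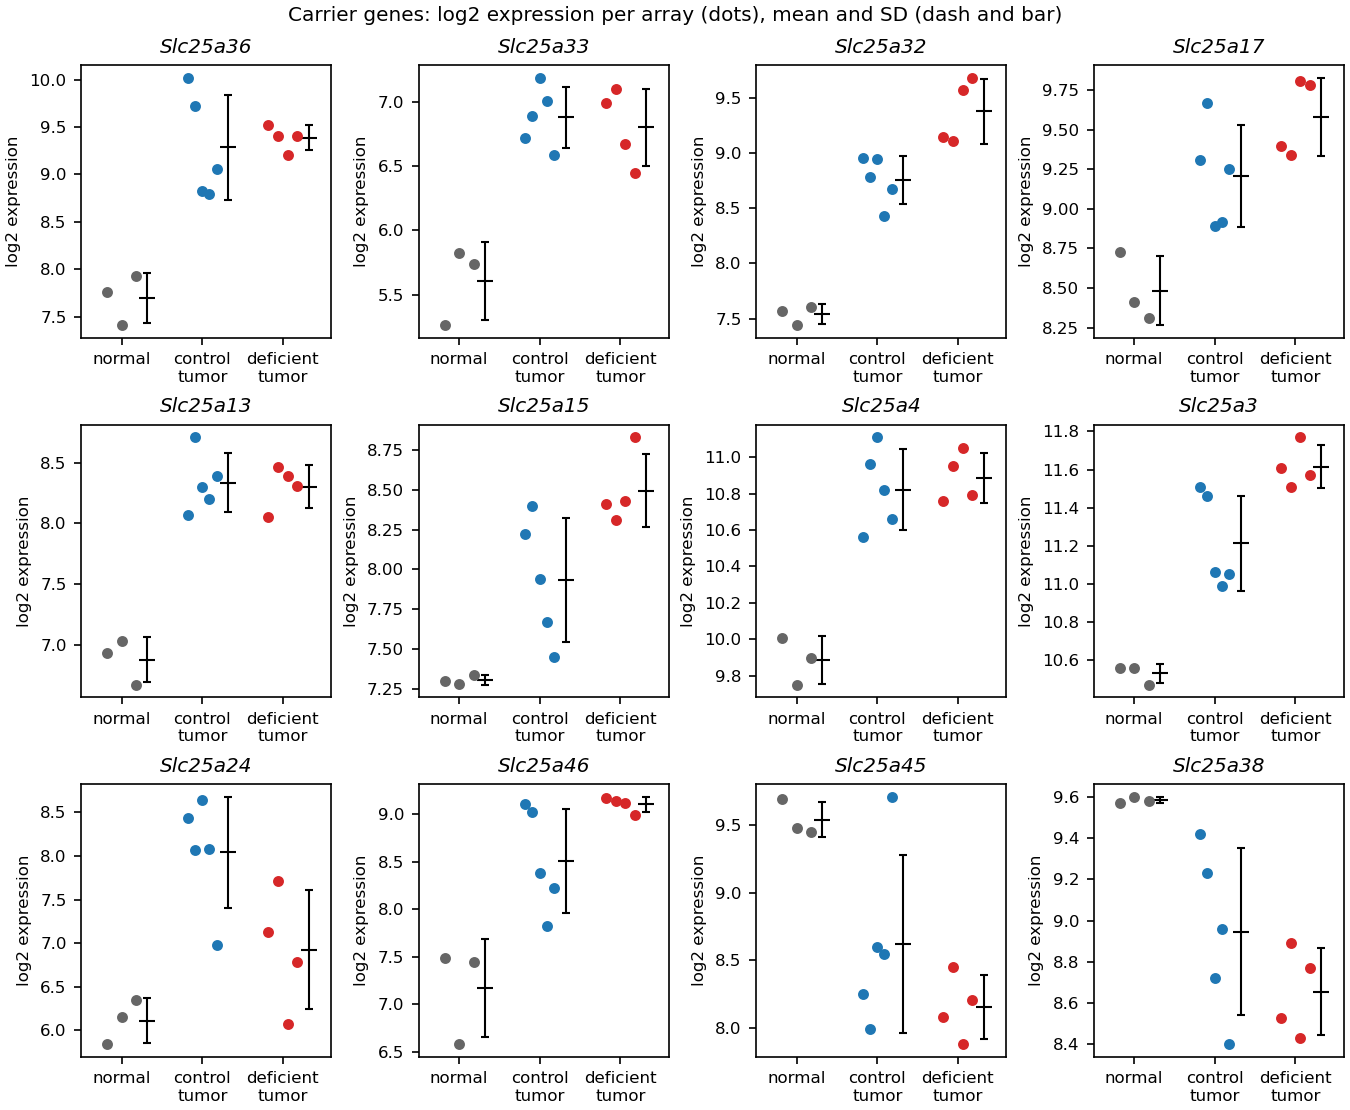
Log2 expression (y axis, scaled separately for each gene) of 12 carrier genes in normal thymocytes (grey, n = 3), control tumors (blue, n = 5) and Dnmt3a-deficient tumors (red, n = 4); each dot is an array and the dash with its bar is the mean with its SD. Slc25a32 climbs without overlap from normal to control to deficient, Slc25a38 sits lower on every tumor array, and Slc25a45 is lower on every tumor array except control tumor 5.

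Windows of 3 carriers that rose in both tumor groups are shown for the place of the E-box, again in capitals and on the gene's strand. Slc25a33 lies at chr4:149774218-149774517 on the minus strand, with the E-box at -8. Slc25a36 lies at chr9:97110992-97111291 on the minus strand, with the E-box at -187. Slc25a13 lies at chr6:6217124-6217423 on the minus strand, with the E-box at -125.
Slc25a33: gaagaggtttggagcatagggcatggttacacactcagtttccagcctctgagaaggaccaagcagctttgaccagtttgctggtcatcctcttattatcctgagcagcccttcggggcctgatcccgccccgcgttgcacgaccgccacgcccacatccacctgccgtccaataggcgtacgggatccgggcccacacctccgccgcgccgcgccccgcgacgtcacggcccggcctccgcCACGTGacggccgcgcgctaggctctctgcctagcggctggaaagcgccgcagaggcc
Slc25a36: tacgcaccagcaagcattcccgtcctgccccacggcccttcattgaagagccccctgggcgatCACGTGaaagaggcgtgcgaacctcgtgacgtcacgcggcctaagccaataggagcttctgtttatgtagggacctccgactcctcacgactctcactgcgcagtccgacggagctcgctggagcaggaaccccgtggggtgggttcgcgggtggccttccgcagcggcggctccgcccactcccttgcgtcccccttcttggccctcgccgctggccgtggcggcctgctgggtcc
Slc25a13: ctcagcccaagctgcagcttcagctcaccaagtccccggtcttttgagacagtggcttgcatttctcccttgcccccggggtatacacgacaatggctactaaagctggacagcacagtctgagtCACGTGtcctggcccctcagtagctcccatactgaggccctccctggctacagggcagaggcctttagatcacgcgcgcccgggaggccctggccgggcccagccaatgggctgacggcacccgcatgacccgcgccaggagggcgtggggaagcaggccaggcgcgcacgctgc

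Promoter windows were listed for 56 of the 69 members. The E-box CACGTG, which reads the same on both strands, was found in 12 of these 56 genes (21.4%), against 9.6% of the 15151 tested genes with a window and 7.2% of all 32851 windows of this length. Among members that rose in control tumors, 8 of 18 held it (44.4%), against 14.3% of all genes that rose there. Among members that rose in deficient tumors, 9 of 25 held it (36.0%), against 13.7% of all genes that rose. Of the members not called, 4 of 33 held it in the control-tumor comparison and 3 of 25 in the deficient-tumor comparison, and of those that fell, 0 of 5 and 0 of 6. Besides the 5 windows printed, Timm10 (+29), Slc25a15 (-77) and Tomm20 (-126) held it among those that rose in both tumor groups, and Slc25a1 (-239) among those that rose in deficient tumors. Tomm70a held none.

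Motifs of other factors linked to mitochondrial genes were searched on both strands in the same windows. The NRF1 motif, GCGC and TGCGC with 1 base of any kind between them, was found in 4 of 56 members (7.1%), against 8.0% of tested genes and 4.6% of all windows. The ETS letters CCGGAAG, of the kind GABPA binds, were found in 14 of 56 members (25.0%), against 13.8% of tested genes and 8.9% of all windows. Members that rose in control tumors held the NRF1 motif in 3 of 18 and the ETS letters in 6 of 18, against 15.0% and 23.8% of all genes that rose. These counts have no test, the calls of the members were known when they were made, and a match shows letters and not binding.

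**Figure D4:**
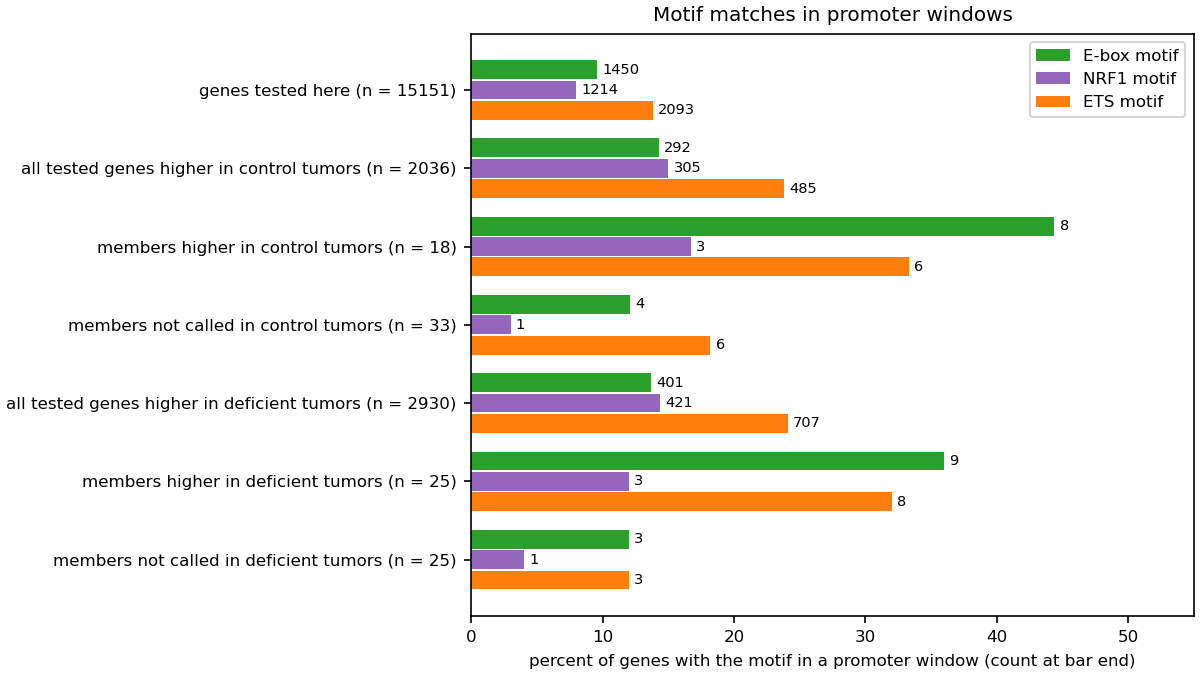
Percent of genes with a motif in a promoter window (x axis) for the E-box (green), NRF1 (purple) and ETS letters (orange), with the number of such genes at the end of each bar and the number of genes in each set in its label. The E-box bar of the members that rose is 44.4% in control and 36.0% in deficient tumors, against 14.3% and 13.7% of all genes that rose. Of the genes tested, 9.6% held it.

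Genes that work beside the members were followed in 7 lists. Between the tumor groups 0 of their 59 genes were called, where 0.590% of all genes were called higher and 0.228% lower, and without control tumors 1 and 2, 21 were higher and 6 lower in deficient tumors (16.1% and 9.24% of all genes). Against normal thymocytes, 13.0% of all genes were called higher and 11.3% lower in control tumors, and 18.7% and 19.0% in deficient tumors. Of genes brighter than the median gene, 24.8% and 34.5% were called higher. These shares stand beside the list counts that follow. Of 7 genes of the import motor, which pulls precursors through TIM23, 3 rose in control and 6 in deficient tumors, and 0 fell. Hspa9, the motor's mitochondrial heat shock protein, rose by 2.13 (SE 0.17, adjusted p = 3.2e-06) and 2.31 (SE 0.18, adjusted p = 1.5e-06). Dnajc15, a cochaperone of the motor, rose by 1.39 (SE 0.32, adjusted p = 0.00654) and 2.31 (SE 0.34, adjusted p = 1.7e-04). Of 8 genes of matrix folding and presequence processing, 4 rose in control and 5 in deficient tumors, and 0 fell. Hspd1, the matrix chaperonin, rose by 2.66 (SE 0.17, adjusted p = 7.5e-07) and 2.94 (SE 0.17, adjusted p = 3.3e-07).

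Of 3 genes of the oxidative import path of the intermembrane space, 2 rose in each tumor group. Gfer, the sulfhydryl oxidase of that path, rose by 0.54 (SE 0.17, adjusted p = 0.0345) and 1.16 (SE 0.18, adjusted p = 2.3e-04). Of 6 outer membrane sorting genes, 2 rose in control and 3 in deficient tumors, among them Mtx2, a metaxin, by 1.74 (SE 0.26, adjusted p = 2.8e-04) and 2.44 (SE 0.27, adjusted p = 1.9e-05). Of 11 genes of inner membrane insertion and quality control, 5 rose in control tumors with 0 lower, and 6 rose and 1 fell in deficient tumors. The inner membrane protease Yme1l1 of that list rose by 2.06 (SE 0.34, adjusted p = 5.8e-04) and 1.88 (SE 0.35, adjusted p = 0.00106). Its normal arrays spread widely, at 8.53, 7.09 and 9.12, against 9.89 to 10.67 in control and 10.06 to 10.24 in deficient tumors.

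Of 14 genes of other mitochondrial channels and transporters, 4 rose (28.6%) and 1 fell in each tumor group. In deficient tumors that share lay below the 34.5% of genes brighter than the median gene. Sfxn1, the mitochondrial serine transporter, rose by 2.10 (SE 0.15, adjusted p = 1.3e-06) and 2.28 (SE 0.15, adjusted p = 6.4e-07), and Sfxn3 fell by 1.10 (SE 0.25, adjusted p = 0.0062) and 1.67 (SE 0.27, adjusted p = 3.1e-04). Of 10 regulators of mitochondrial biogenesis, 5 rose in control and 6 in deficient tumors, and 0 fell. Gabpa, which encodes an ETS factor, rose by 1.77 (SE 0.17, adjusted p = 1.0e-05) and 2.01 (SE 0.18, adjusted p = 3.4e-06). Of these 10, 6 differences were positive in control and 7 in deficient tumors. Nrf1 and Esrra, named after their values were seen, had lower means in both tumor groups and were not called. Nrf1 was 9.31, 8.56 and 9.12 in normal thymocytes and averaged 8.43 in control and 8.60 in deficient tumors. Esrra averaged 8.07, 7.67 and 7.70, with every tumor array below every normal array.

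The last comparison asks what loss of Dnmt3a adds in lymphomas that all carry MYC. With all 5 control tumors, 0 of 69 members were called higher or lower in deficient than in control tumors (limma, adjusted p under 0.05), where 0.590% of all genes were called higher and 0.228% lower. The lowest adjusted p was 0.0726, for Slc25a20. At an unadjusted limma p under 0.05, 16 members were higher and 2 lower, together 26.1% of the members against 20.2% of all genes. Reassigning the 9 tumors in every way (exact permutation test, two-sided) gave 11 of 69 members an unadjusted p under 0.05, against 13.6% of all genes. The median log2 difference was 0.11 over the members and -0.01 over all genes. Among genes brighter than the median gene it was 0.20 for the members there and 0.13 for all. Over all members the median was 0.015 after a second quantile normalization and 0.013 after cyclic loess.

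The separate members differed as follows. Slc25a32 was higher in all 4 deficient tumors than in any control tumor, by 0.62 (95% interval 0.28 to 0.96, limma adjusted p = 0.0778). Its exact permutation p was 0.00794, the smallest that these reassignments can give. Timm23 also separated without overlap, by 0.59 (95% interval 0.23 to 0.95, limma adjusted p = 0.103; exact permutation p = 0.0238). Of all genes, 3.80% had every deficient tumor above every control tumor. Slc25a20 gave -1.0 (95% interval -1.51 to -0.48) and an exact permutation p of 0.0238. Its highest arrays were control tumors 3 and 4, those with the high neutrophil marker mean. Without them its difference was -0.67 (limma adjusted p = 0.341), and the part of neutrophil RNA in it was not tested.

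Tomm22, with 1.05 (95% interval 0.43 to 1.67, limma adjusted p = 0.098), and Timm8b, with 0.90 (95% interval 0.39 to 1.42, limma adjusted p = 0.089), overlapped between the tumor groups through control tumor 2 alone. Slc25a24 gave -1.12 (95% interval -1.86 to -0.38, limma adjusted p = 0.117). Slc25a1 gave 1.08 (95% interval 0.31 to 1.85, limma adjusted p = 0.136), with control tumor 2 above every deficient tumor. Each of these intervals, which are not adjusted for the number of genes, leaves out 0. An adjusted p above the threshold does not show that the groups were alike.

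The count between the tumor groups turned on control tumors 1 and 2. Without both, 22 members rose, 14 of them carriers, and 3 fell in deficient tumors, where 16.1% of all genes were called higher and 9.24% lower. Without control tumor 1 alone 6 rose and 1 fell (4.08% and 1.17% of all genes), and without control tumor 2 alone 9 rose and 1 fell (5.71% and 1.96%). This choice of arrays was made with earlier results of these data known, and the arrays left out are those whose 75th percentile lay nearest the deficient tumors. Their removal by itself favours larger differences for genes that follow that split, so the counts and differences describe the dependence on these arrays and are no test of Dnmt3a loss. Without both arrays Slc25a1 differed by 1.67, Slc25a23 by 1.53, Tomm22 by 1.49, Timm8b by 1.32 and Slc25a16 by 1.10. The 3 that fell were Slc25a20, with -1.38, Slc25a45, with -0.80, and Tomm34, with -0.55. Of the 3 control tumors in that fit, 2 are those with the high neutrophil marker mean. The mean of 10 macrophage markers was 6.81 and 7.64 in control tumors 1 and 2, 6.01 to 6.74 in the others and 6.64 to 7.48 in deficient tumors, and that of 9 fibroblast and endothelial markers was 6.69 and 6.86, 6.26 to 6.46 and 6.41 to 6.67. Single markers, named after their values were seen, did not all follow the split. The macrophage gene C1qb did, at 8.73 and 10.16, 5.53 to 6.28 and 8.41 to 9.53. The fibroblast gene Dcn did too, at 7.72 and 8.76, 5.36 to 5.47 and 6.88 to 8.45. The macrophage gene Csf1r did not, at 6.68 and 7.72 in control tumors 1 and 2 against 6.33 to 8.80 in the other control tumors. Nor did the fibroblast gene Col1a1, at 7.25 and 7.25 against 7.22 to 8.19. The mean of 8 muscle markers was 6.94 in control tumor 2 against 5.68 to 6.49 on the other arrays. The part of these cells in the counts was not tested. With control tumors 1 and 2 as the only control tumors, 0 members were called. Both of these arrays lay above control tumors 3, 4 and 5 for 26 of the 69 members (25.5% of all genes) and below them for 12 (21.1%). The labels give no difference between these control tumors.

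**Figure D5:**
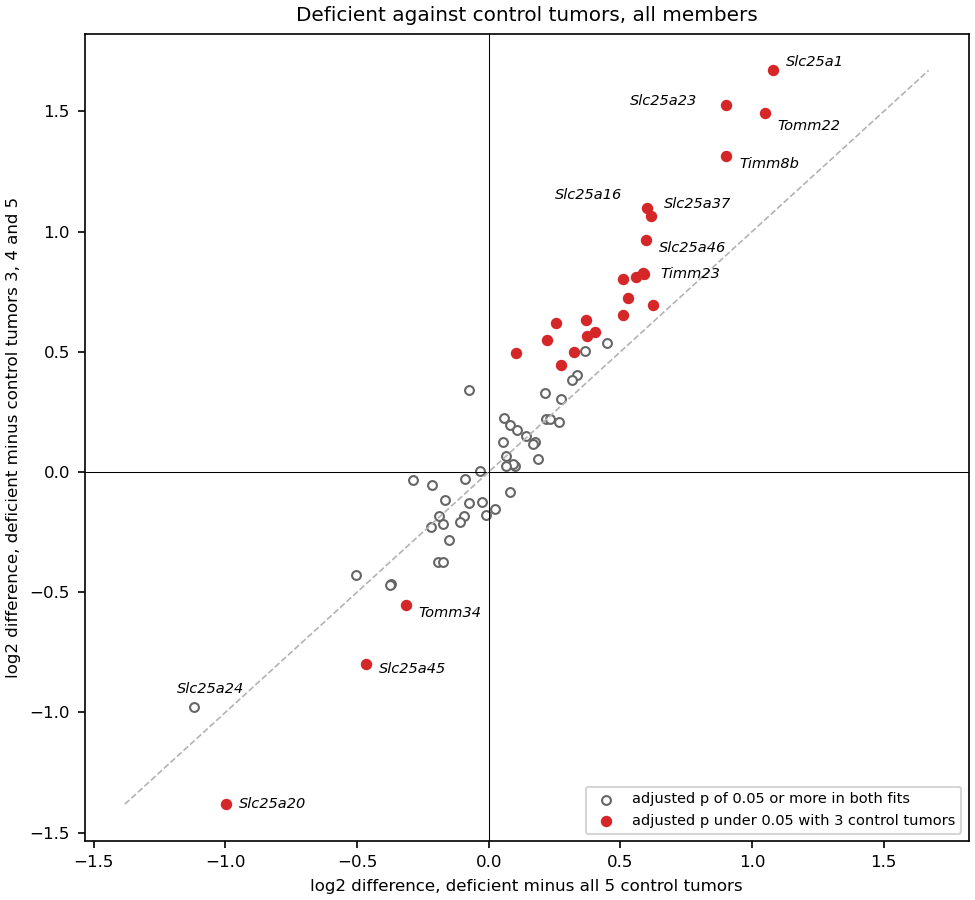
Log2 difference of Dnmt3a-deficient from control tumors for each of the 69 members (dots), with all 5 control tumors (x axis) and with control tumors 3, 4 and 5 alone (y axis); the dashed line marks equal values and red dots had an adjusted p under 0.05 on the y axis only. The red dots are 22 members above 0 and 3 below it, led by Slc25a1 at 1.67 and Slc25a20 at -1.38.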

How the data were processed

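Log2 expression values of 12 arrays were used as deposited; per the submitters' processing notes they were made with RMA in Affymetrix Expression Console, with no version stated. Whether arrays were normalized together is not stated either, and array quartiles differed between groups. Probe sets were named from the platform annotation: of 23858, 20870 had 1 gene symbol, 1453 several and 1535 none. All 69 members matched the RefSeq gene table. Each gene was represented by its probe set with the highest mean, without a filter, and 0 columns of values were left unused.

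The 3 group means were fitted in 1 limma model (limma 3.58.1, R 4.3.3; 9 residual and 4.17 prior degrees of freedom), two-sided, with Benjamini-Hochberg adjustment over 19309 genes and a threshold of 0.05. All adjusted p-values are from this model unless an alternative is named, differences are log2, and deficient and control tumors were also set against each other, member by member, with a two-sided exact permutation test. Precision is limited by how few arrays there are. The code was tested on simulated data. The rule for named genes allowed every member, with values by array for the called members that moved most and for paralog pairs, and called genes of each pathway list; some further members were given by array after their values were seen. The members and lists were chosen with earlier results of these data known.

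Alternatives were median centring, a second quantile normalization, cyclic loess, genes above the median in mean signal only, the mean of all probe sets of a gene, 2 groups alone, a trended robust prior, the replicate number as a block, each array left out, and subsets of control tumors. Same-numbered arrays of different groups had correlations of their deviations from the group means between -0.134 and 0.338, so the numbers were not taken to pair arrays. Promoter windows of 300 bases came from RefSeq.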

Additional observations from a re-analysis of the deposited data

Results flagged for a closer look

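Of 138 groups of 4 or 5 arrays, 1 for each member and tumor group, 7 had an array far from the others, and chance alone gives about 1 in 20. Slc25a31 was 4.76 in control tumor 5 against 4.12 to 4.2 in the other control tumors. Slc25a41 was 5.64 in control tumor 5 against 5.33 to 5.40, and 5.49 in deficient tumor 3 against 5.13 to 5.18 in the other deficient tumors. Timm13 was 8.33 in control tumor 3 against 8.50 to 8.56. Timm50 was 9.03 in deficient tumor 1 against 9.46 to 9.50, and Tomm5 was 9.49 there against 10.13 to 10.25. Tomm40 was 9.76 in deficient tumor 3 against 9.49 to 9.50.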

How the results depend on the processing

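In the comparisons with normal thymocytes no called member changed sign under any alternative, and 15 of 28 calls in control tumors and 25 of 38 in deficient tumors were kept in all of them. Members lower in control tumors numbered 2 when the 2 groups were fitted alone, 2 without control tumors 3 and 4 (chosen after seeing the data) and 0 to 6 with 1 array left out. Members lower in deficient tumors numbered 11 after a second quantile normalization, 11 after cyclic loess and 4 to 8 with 1 array left out. The median difference of all 69 members between deficient tumors and normal thymocytes was 0.247 after the second quantile normalization, and that of the 56 members above the median gene in mean signal was 0.683; the cause was not tested. Further control-tumor calls ended with the 2 groups alone (Slc25a15, Slc25a26, Slc25a38, Slc25a39, Slc25a44, Slc25a45, Timm10 and Timm22), with the trended prior (Slc25a26 and Timm10) and without control tumors 3 and 4 (Slc25a11, Slc25a26, Slc25a38, Slc25a39, Slc25a44, Slc25a45 and Timm22). Between tumor groups, median centring gave 1 member higher, leaving out 1 array gave 0 to 9 higher and 0 to 1 lower, and leaving out control tumors 1 and 2 gave 22 higher and 3 lower. With control tumors 1 and 2 as the only control tumors, Slc25a23 turned to -0.037 and Slc25a37 to -0.056 (limma adjusted p = 0.982 and 0.968). With the replicate block, 19 members were higher and 5 lower in control tumors, 31 and 8 in deficient tumors, and 0 and 0 between tumor groups; the arrays share only a number. Groups of 3 to 5 arrays limit the precision of every difference.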
